A study of Mus musculus with 884 samples.

Results

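The 48 cells described here were single mouse cells caught in the middle of S phase on either side of the move from epiblast-like culture to floating aggregates. They comprised 35 cells from day 2 (d2) and 13 cells from day 3 (d3) of a differentiation series of 884 single cells, and were taken as the S-phase cells whose replication score lay from 40 to 70%. The replication score is the percentage of a cell's called autosomal bins that had been replicated, so it measures how far through S phase the cell was. Each cell had been sorted by DNA content, its genome had been amplified and sequenced, and every 80 kb bin of chromosomes 1 to 19 had been called replicated or not yet replicated (single-cell Repli-seq).

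Both days came from the line CBMS1, female embryonic stem cells of the hybrid strain CBA/MsM that were kept in 2i/LIF before differentiation. The d2 cells had spent their differentiation becoming epiblast-like cells (EpiLCs). The d3 cells came from the first day after these EpiLCs had been aggregated in plain GK15 medium with no added factors, on a path that yields neurectoderm by d7. The labels named no transgene and no mutation for either group. The other groups used below were the undifferentiated CBMS1 cells (d0), later days of the same aggregates (d4 to d7) and a line of epiblast stem cells (EpiSC) grown in Activin and FGF. No separate cultures were named, so each day counted as 1 biological sample, cells were not treated as replicates and no test was run between days. Differences are described by a fixed size rule of 30 points in the share of cells, and exact Clopper-Pearson 95% intervals cover counting error only. The intervals take no account of the choice of regions on these same cells, so a gap between them is in part fixed by that choice.

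Mammalian chromosomes are copied in a set order. Large domains rich in active genes and open chromatin replicate early in S phase, while compact, gene-poor domains at the nuclear periphery replicate late. The order is a stable property of a cell type, and long blocks of chromosome switch between early and late during lineage commitment. In a cell near the middle of S phase the early domains are already copied and the late ones are not, so the share of mid-S cells in which a bin is replicated serves as a reading of its timing.

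The mid-S cells of both days were at similar stages of S phase. Scores averaged 52.3% ± 7.90 (SD, n = 35 cells) at d2 and 53.7% ± 10.1 (n = 13) at d3, with medians of 51.9% and 56.2%. The d3 cells were unevenly spread, since 4 of them lay between 40.8% and 42.4% and the next had a score of 49.9%. Cells at the edges of the window were close to those beyond it: at d2 the lowest score inside was 40.1% and the highest below the window was 39.3%, and the highest inside was 69.5% and the lowest above it 70.1%. At d3 these scores were 40.8% and 36.96% at the lower edge and 68.4% and 70.1% at the upper edge. Between 29402 and 29735 of 30890 bins were called in each d2 cell and between 29442 and 29550 in each d3 cell. No pair of cells held identical calls.

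The authors had corrected each cell against a control made by merging several G1 cells, which have not begun to replicate. The d2 cells fell into 12 corrected with a control called A here, merged from 2 G1 cells, and 23 corrected with a control called B, merged from 3. All 13 d3 cells had been corrected with another control, C, merged from 2 d3 G1 cells. Because the days shared no control, the day and the G1 control cannot be told apart, and the counts and several of the results below are therefore also given for the d2 cells of controls A and B separately. Within every d2 sorting gate, the lower title numbers belonged to control A and the higher ones to control B. What else set these blocks of cells apart was not named, so it cannot be told apart from the control. The mean score was 54.9% ± 8.87 for A, 51.01% ± 7.20 for B and 53.7% ± 10.1 for C.

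**Figure D1:**
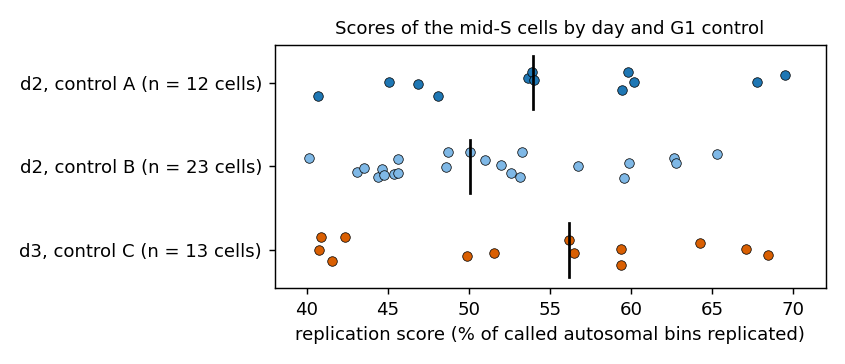
Replication scores of the 48 mid-S cells (x axis, percent of called autosomal bins replicated), 1 point per cell, in rows by day and G1 control, with the median of each row as a vertical line. The 3 rows span nearly the same range, and 4 of the 13 d3 cells sit together between 40.8% and 42.4%.

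Most of the genome kept its place in the replication order from d2 to d3. Of 29552 bins called in at least 50% of the cells of both groups, 18240 (61.7%) differed by less than 10 points between the days. At both days 9620 bins (32.6%) were replicated in at least 80% of cells and 7571 (25.6%) in at most 20%. Across bins the mean profiles of d2 and d3 correlated with r = 0.909, as a description over bins that share cells and chromosomes. The mean difference over all bins was 1.33 points, with a standard deviation across bins of 16.6 points. A single cell is worth 7.69 points of the d3 share and 2.86 points of the d2 share.

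Bins differed in both directions, and which direction held more depended on the cells used. In 1619 bins (5.48% of those compared, 130 Mb) the share of replicated cells was at least 30 points higher at d3, and in 844 bins (2.86%, 67.5 Mb) it was at least 30 points lower. The bins that were earlier at d3 had been replicated in 24.4% of d2 cells and were replicated in 68.4% of d3 cells on average. The bins that were later at d3 went from 74.4% to 36.7%. These averages restate the rule that chose the bins. With d2 cells matched to the 13 d3 cells in score, the 2 counts were 1851 earlier (6.26%) and 1629 later (5.51%), and with scores of 35 to 75% (47 d2 and 19 d3 cells) they were 952 earlier and 1026 later. The excess of earlier bins was thus smaller in the first setting and turned round in the second, as it did against the d2 cells of control A alone.

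**Figure D2:**
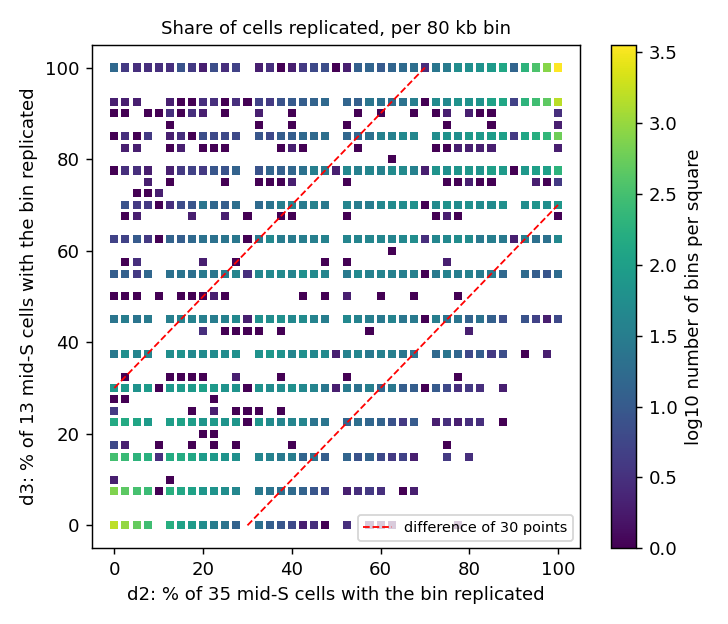
Each square stands for the bins with a given percentage of the 35 d2 cells (x axis) and of the 13 d3 cells (y axis) replicated, and its colour gives the number of bins on a log10 scale. Most bins lie in the corners where both days are near 0% or near 100%; the 1619 earlier bins lie on or above the upper dashed line and the 844 later bins on or below the lower one.

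Changes came from every timing class. Of the 10149 bins replicated in at most 20% of d2 cells, 801 (7.89%) were earlier at d3. Of the 7949 bins with intermediate d2 shares, 818 (10.3%) were earlier and 455 (5.72%) later. Of the 11454 bins replicated in at least 80% of d2 cells, 389 (3.40%) were later. Bins at an extreme can move in 1 direction only.

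The d2 cells of controls A and B set the scale for these counts. Between the d2 cells of control A and those of control B, the same size rule counted 891 bins earlier in B (3.01%) and 2637 later in B (8.9%), although all of these cells were labelled d2. With 12 cells of control B matched in score to the 12 of control A, 1540 bins (5.20%) were earlier and 1985 (6.70%) later, and the profiles correlated with r = 0.896. Cells of 1 day with different controls thus also differed in many bins. Against the 13 d3 cells, the 12 cells of control A alone gave 2056 earlier and 2397 later bins (r = 0.855), more than against the 12 matched cells of control B. The 23 cells of control B alone gave 2129 earlier and 759 later bins (r = 0.905). Set against control A, these 23 cells had differed in 891 bins in 1 direction and 2637 in the other. The correlation there was below 0.905, as it was with the 12 matched cells (r = 0.896). By bin count and correlation of mean profiles, d3 was thus no further from control B than control A was. Between d3 and control A the difference was larger. Of the 1619 earlier bins, 1006 (62.1%) passed the rule against A and against B separately, and of the 844 later bins 449 (53.2%) did. The same cells had chosen these bins, so passing in part restates the choice. The share of all bins passing against both controls was not counted.

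Agreement between single cells was compared next. Pairs of cells within 5 points of score had the same call in a median of 84.8% of bins when both were d2 cells of control A (11 pairs, range 82.03 to 85.4%) and in 84.5% when both were of control B (90 pairs, 82.3 to 86.6%). The median was 82.2% for pairs of an A and a B cell (86 pairs, 78.2 to 83.98%). Pairs of a d2 and a d3 cell agreed less, at 78.8% for A with C (46 pairs, 75.3 to 82.3%) and 79.9% for B with C (88 pairs, 76.4 to 84.1%). Pairs of d3 cells, which share day and control, agreed in a median of only 80.03% of bins (20 pairs, 76.4 to 84.8%). The d3 cells were thus less alike than the d2 cells of either control, and about as unlike each other as they were unlike d2 cells.

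The d3 cells also followed the mean order of their day less closely. The area under the curve with which the mean profile of the other cells of its day ranked a cell's replicated above its unreplicated bins was 0.925 to 0.967 in d2 cells (median 0.952) and 0.886 to 0.949 in d3 cells (median 0.926). The lowest d3 values, 0.886 for 2 cells, belonged to cells with scores of 40.8% and 42.4%. The d3 mean rests on 12 other cells and the d2 mean on 34.

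The changed bins were then read in S-phase cells that the choice of bins had not used, those with scores below 40% or above 70%. In cells with scores of 20 to 40%, the earlier bins were replicated in 6.49% on average at d2 (21 cells, range 2.17 to 13.9%) and in 29.4% at d3 (7 cells, 11.8 to 41.9%). The later bins went the other way, 32.6% at d2 (15.6 to 50.6%) against 14.5% at d3 (6.41 to 19.9%). The mean scores of these cells were 29.6% and 33.4%. In cells with scores of 70 to 85% the mean score was 77.4% on both days. There the earlier bins were replicated in 71.8% at d2 (22 cells, 53.7 to 82.9%) and 87.9% at d3 (7 cells, 81.2 to 95.03%). The later bins were replicated in 96.002% at d2 (89.6 to 99.8%) and 85.5% at d3 (68.2 to 96.9%).

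The share of earlier bins minus the share of later bins was also taken within each cell. In this difference bins replicated in at least 25% of the G1 cells of d2 or d3 were left out. At scores of 20 to 40% it ran from -41.2 to -11.6 points in the d2 cells (median -22.9) and from -0.0766 to 26.7 points in the d3 cells (median 10.7), with no overlap. At scores of 70 to 85% it ran from -41.5 to -8.79 points (median -23.3) at d2 and from -7.53 to 25.9 points (median -2.58) at d3, again with no overlap. The d2 cells of controls A and B lay on the same side, with medians of -22.6 and -25.2 points in the lower range of scores and -23.2 and -23.4 points in the upper one. At scores of 5 to 20% the d2 cells reached 0.698 points at most and the d3 cells lay between 1.93 and 23.9 points. At 85 to 95%, where nearly all bins are replicated, the ranges overlapped, from -14.3 to 3.59 points at d2 and from -4.60 to 2.30 points at d3.

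The same held-out reading separated the d2 cells of control A from those of control B. For the bins that differed between A and B, the difference of bins earlier in B minus bins later in B ran from -29.1 to -7.29 points in 14 A cells and from 9.95 to 34.7 points in 7 B cells at scores of 20 to 40%. At 70 to 85% it ran from -16.7 to -3.83 points in 9 A cells and from 2.33 to 24.7 points in 13 B cells. Separation in cells outside the window was thus seen between the days and between the controls of 1 day. The part of the G1 control in the d2-to-d3 difference was not tested.

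**Figure D3:**
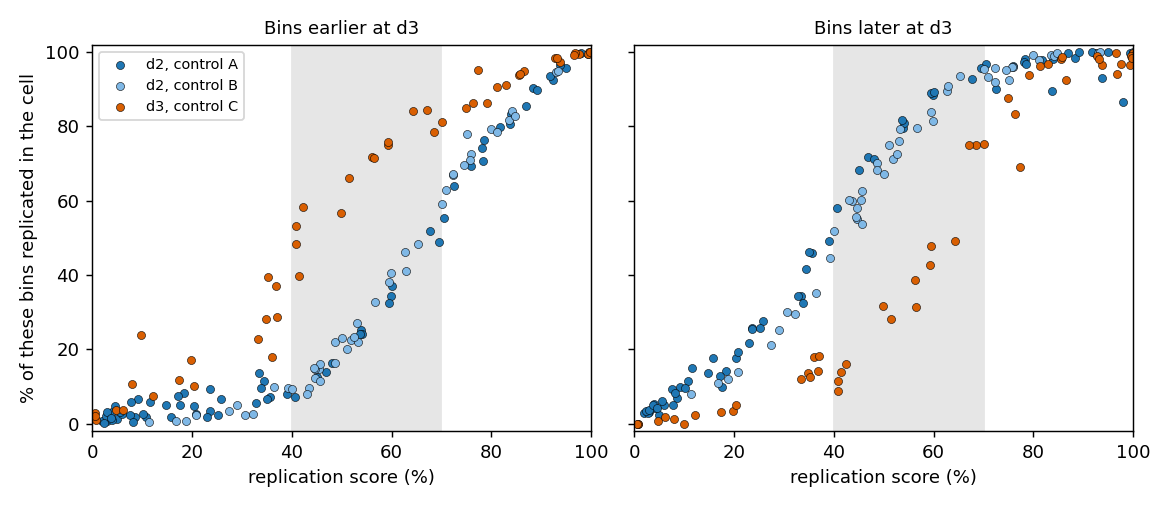
Percentage of the earlier bins (left) and of the later bins (right) replicated in every d2 and d3 S-phase cell, against the cell's replication score; bins replicated in at least 25% of G1 cells are left out, and the shaded band is the window of 40 to 70% that chose the bins. Outside the band the d3 points (orange) mostly lie above the d2 points on the left and below them on the right, except near the ends of S phase. The days overlap on the right at scores of 70 to 85%, from 69.1 to 96.9% at d3 and from 89.4 to 99.8% at d2. On the right, d2 cells of control A tend to lie above those of control B at like scores.

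A logistic midpoint, the score at which a bin passes from unreplicated to replicated, was fitted from the cells outside the window alone (70 at d2 and 26 at d3). Among the 1615 earlier bins with a midpoint on both days, 1393 (86.3%) had a lower midpoint at d3, with a median shift of -17 points. Among the 844 later bins, 740 (87.7%) had a higher one, with a median shift of 17 points. Over all bins 46.9% shifted earlier and 48.8% later, and the median shift was 0 points.

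Replication calls in G1 cells marked a group of the earlier bins that needs separate reading. The earlier bins were called replicated in 7.46% of G1 calls at d3 and 1.83% at d2, whereas the later bins were so called in 0.531% and 3.32%. Over all bins compared the values were 1.67% at d3 and 3.02% at d2. All 6 d3 G1 cells had between 2.19 and 15.99% of the earlier bins called replicated, although 5 of them had a score of no more than 1.04%. In total 9.57% of the earlier bins and 3.91% of the later bins (33 bins) were called replicated in at least 25% of the G1 cells of d2 or d3, against 3.18% of all bins compared. Without such bins 1464 of 28612 bins were earlier (5.12%) and 811 later (2.83%).

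Only a minority of the changed bins formed long domains. Runs of at least 5 adjacent changed bins, 400 kb or more, numbered 83 for earlier replication (42.5 Mb, 32.8% of the earlier bins) and 39 for later replication (17.8 Mb, 26.3%). Their median lengths were 480 and 400 kb and the longest measured 1280 and 720 kb. Single isolated bins made up 332 of the 703 runs of earlier bins (47.2%) and 230 of the 422 runs of later bins (54.5%). Of the 81 earlier regions with measured neighbours on both sides, 24 lay on a timing slope, with d2 shares at least 10 points higher on 1 side and at least 10 points lower on the other. Of the 39 later regions 11 did.

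The 10 largest gains of early replication all held bins that were replicated in G1 cells. The largest lay on chromosome 14 from 7280001 to 7840000 (mm9), where more than 50% of the called bins were replicated in 0 of 30 d2 cells (interval up to 11.6%) and 11 of 11 d3 cells (from 71.5%). It was also called replicated in 6 of 6 d3 G1 cells, in 0 of 8 d2 G1 cells and in 5 of 5 d3 cells with scores of 20 to 40%. Its mean share returned to 3.97% at d4, and calls were present in 72.5% of the d3 mid-S entries. Chromosome 4 from 60080001 to 60720000 behaved alike, with 6 of 35 d2 cells (17.1%, 6.56 to 33.6%) and 13 of 13 d3 cells (from 75.3%) in mid-S and 6 of 6 d3 G1 cells. Chromosome 5 from 10800001 to 11520000 was replicated in 2 of 34 d2 and 12 of 13 d3 mid-S cells, and in 5 of 6 d3 G1 cells. In these regions, and in the chromosome 14 region from 43840001 named below (5 of 6), nearly all d3 G1 cells carried the same call as the mid-S cells; its part in the d3 shares was not tested.

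The other regions among these 10 were replicated in 0 to 5 d3 G1 cells. Chromosome 7 from 15280001 to 16400000, at 1120 kb the longest of them, was replicated in 0 of 35 d2 cells (up to 10.003%) and 13 of 13 d3 cells (from 75.3%), with 2 of 6 d3 G1 cells and 7 of its 14 bins marked by G1 calls. Outside the window it was replicated in 3 of 22 d2 and 6 of 7 d3 cells with scores of 70 to 85%. Chromosome 3 from 93440001 to 94080000 went from 3 of 35 (8.57%, 1.80 to 23.1%) to 11 of 13 cells (84.6%, 54.6 to 98.1%), with 2 of 6 d3 G1 cells. Chromosome 3 from 151120001 to 151600000 went from 2 of 35 (5.71%, 0.6997 to 19.2%) to 10 of 13 cells (76.9%, 46.2 to 94.96%), with 0 of 5 d3 G1 cells but 3 of 6 bins marked. The other 4 lay on chromosome 7 (7200001 to 7600000 and 32800001 to 33200000) and chromosome 14 (43840001 to 44880000 and 41840001 to 42400000), with mean d2 shares of 8.61%, 10.2%, 13.9% and 15.3% and mean d3 shares of 94.7%, 73.1%, 86.8% and 82.5%. They were replicated in 3 of 6, 3 of 5, 5 of 6 and 1 of 6 d3 G1 cells. Over all 10, the share of d3 mid-S entries with a call was 64.6 to 99.5% (median 84.8%). At d4 their mean shares were 3.97 to 33.3%, nearer to d2 than to d3 in 10 of 10.

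The largest gains without such bins were smaller. Of the 83 earlier regions, 58 held no bin replicated in at least 25% of G1 cells. The 10 largest of these, chosen after the G1 values had been seen, ranked from 11 to 23 among all gains, and went from mean shares of 5.14 to 29.1% at d2 to 58.5 to 83.1% at d3. The d3 G1 cells were replicated in 1 of 60 region-and-cell pairs. Chromosome 3 from 141280001 to 141680000 led them, with 3 of 35 d2 cells (8.57%, 1.80 to 23.1%) and 10 of 13 d3 cells (76.9%, 46.2 to 94.96%). All 5 of its bins were called in every mid-S cell, and its mean share was 18.3% in control A cells and 0% in control B cells. Chromosome 3 from 24880001 to 25280000 went from 10 of 35 (28.6%, 14.6 to 46.3%) to 11 of 13 cells (84.6%, 54.6 to 98.1%), with mean shares of 35.0% in A and 26.1% in B cells. Chromosome 17 from 76880001 to 77360000 went from 2 of 35 to 8 of 13 cells (61.5%, 31.6 to 86.1%). On chromosome 1, the neighbouring regions from 175120001 to 175520000 and from 175920001 to 176320000 went from 5 and 8 of 35 cells to 10 and 12 of 13.

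Cells outside the window gave these gains the same direction in 9 of 10 regions. Their midpoints were lower at d3 by up to 33.5 points (median 21 points), and equal in the region of chromosome 6 from 35440001 to 35840000. Among cells with scores of 20 to 40%, however, 7 of the 10 regions were replicated in 0 or 1 of 7 d3 cells, and the range was 0 to 5 of 7 d3 cells and 0 to 3 of 21 d2 cells (20 in 1 region). By d4 the mean shares of all 10 lay between 12.04 and 34.4%, nearer to d2 than to d3.

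The 10 largest losses of early replication, from -53.3 to -43.6 points, were smaller than the 10 largest gains, from 62.8 to 98.9 points. All of those gains held bins replicated in G1 cells. The 10 largest gains without such bins ran from 52.7 to 61.4 points, closer in size to the losses. Of the 39 later regions 4 held bins replicated in at least 25% of G1 cells, but none of the 10 largest was replicated in any d2 or d3 G1 cell, and their bins were called in every d3 mid-S cell. Chromosome 8 from 37040001 to 37440000 was replicated in 28 of 35 d2 cells (80.0%, 63.1 to 91.6%) and 2 of 13 d3 cells (15.4%, 1.92 to 45.4%). Its mean share was 83.3% in A and 77.4% in B cells; over the 10 losses the mean shares were 50 to 100% in A cells and 52.2 to 94.4% in B cells, each above the d3 share of the same region. Chromosome 12 from 99440001 to 99840000 was replicated in 26 of 35 d2 cells (74.3%, 56.7 to 87.5%) and in 0 of 13 d3 cells (up to 24.7%), and the region from 108720001 to 109200000 in 17 of 35 (48.6%, 31.4 to 66.01%) and 0 of 13. The latter differed most in d2 by control after the region from 92720001, with mean shares of 79.2% in A and 52.2% in B cells. On chromosome 18 from 44720001 to 45360000 22 of 35 (62.9%) d2 and 1 of 13 (7.69%) d3 cells were replicated, and on chromosome 15 from 94080001 to 94720000 they were 24 of 35 (68.6%) and 1 of 13.

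Some losses began from domains that nearly all d2 cells had copied. Chromosome 9 from 66960001 to 67520000 was replicated in 35 of 35 d2 cells (from 89.997%) and 6 of 13 d3 cells (46.2%, 19.2 to 74.9%). Chromosome 12 from 110320001 to 110960000, flanked by bins with mean d2 shares of 97.7% and 94.3%, went from 32 of 35 (91.4%, 76.9 to 98.2%) to 4 of 13 cells (30.8%, 9.09 to 61.4%). Chromosome 9 from 70800001 to 71440000 went from 28 of 35 to 5 of 13 cells (38.5%, 13.9 to 68.4%), and chromosome 12 from 92720001 to 93120000 from 27 of 35 to 4 of 13. Chromosome 14 from 115280001 to 115760000 was the smallest of the 10, with 23 of 35 and 2 of 13 cells.

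In cells outside the window the losses were partly visible. With scores of 70 to 85%, these regions were replicated in 20 to 22 of 22 d2 cells and in 4 to 7 of 7 d3 cells, with fewer than 7 in 7 of the 10 regions and all 7 in the other 3 (chromosome 12 from 110320001 and both regions of chromosome 9). With scores of 20 to 40%, they were replicated in 2 to 11 of 21 d2 cells and in 0 or 1 of 7 d3 cells, with 0 in 8 of the 10. Midpoints from these cells alone were higher at d3 in 10 of 10 regions, by 8 to 39 points (median 25.5 points).

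**Figure D4:**
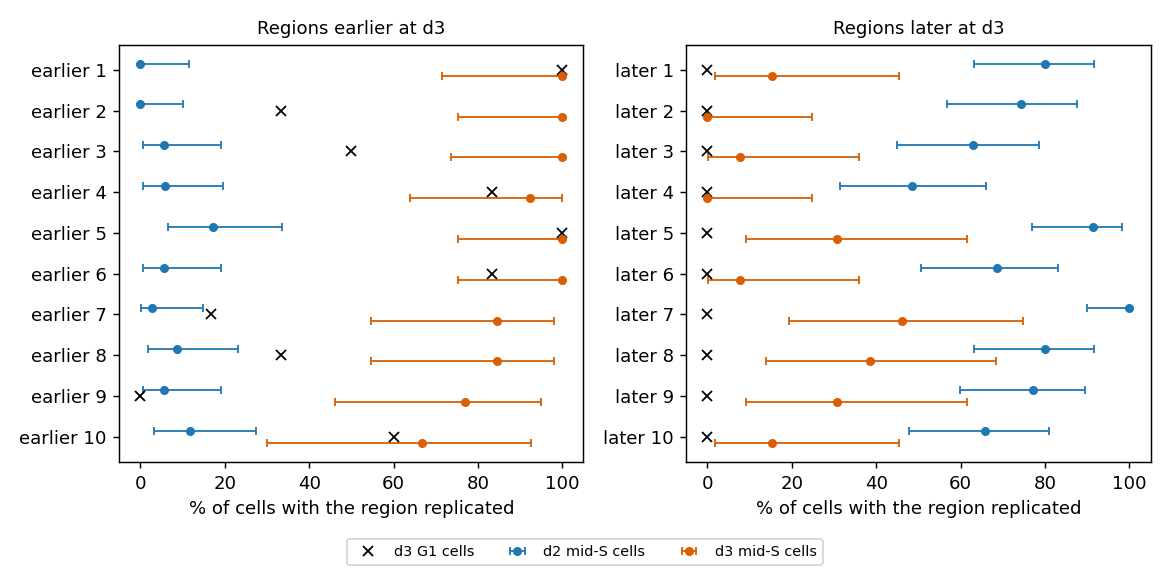
Percentage of d2 (blue) and d3 (orange) mid-S cells in which more than 50% of the called bins of each of the 10 largest gains (left) and losses (right) were replicated, with exact 95% intervals for counting error; crosses give the 5 or 6 d3 G1 cells. Crosses stand away from 0% in 9 of the 10 gains and at 0% in 10 of 10 losses. The regions were chosen on these same mid-S cells, which the intervals do not take into account.

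Chromosomes took unequal parts in the change. Chromosome 12 had the highest share of later bins (9.00% of its bins, against 2.86% over all autosomes) and 8 of the 39 later regions, all between 92720001 and 118560000 of a chromosome whose last bin ended at 121200000. Their mean shares were 61.4 to 100% at d2, 11.5 to 58.5% at d3 and 52.2 to 97.8% at d4. Chromosome 3 had the highest share of earlier bins (10.7%, against 5.48%) and 14 of the 83 earlier regions, and chromosomes 6 and 4 followed with 9.16% and 7.04%. On the gene-dense chromosome 11 only 23 bins (1.55%) were earlier and 30 (2.02%) later, and none lay in a region of 400 kb.

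Chromosome 12 was also set against each cell's own score. Its replicated share minus the score had a median of -8.09 points in d3 mid-S cells (range -12.4 to -4.30). In d2 cells the medians were -3.73 points for control A (-6.20 to 17.2) and -2.99 for control B (-8.19 to 1.34), and the ranges overlapped with d3. At scores of 20 to 40% the medians were -2.98 points at d2 and -8.76 at d3, and at 70 to 85% they were -2.68 and -4.11. The d2 ranges there, -23.5 to 24.4 and -26.7 to 14.8 points, enclosed every d3 value. At d4 the mid-S median was -2.96 points. Chromosome 3 moved the other way in its medians. They were -11.2 points in A cells (-12.98 to -5.81), -13.3 points in B cells (-19.6 to -9.48) and -12.05 points at d4. In d3 cells the median was -7.69 points (-11.5 to -5.78), a range that overlapped those of A and B. At scores of 70 to 85% the chromosome 3 medians of d2 and d3 were nearly equal, -7.28 and -7.01 points.

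Most of the d2-to-d3 differences were no longer present at d4. The earlier bins, at 24.4 and 68.4% on d2 and d3 by the choice of bins, had a mean share of 35.9% in the 18 d4 cells, and later means were 33.002% (d5), 31.1% (d6) and 32.7% (d7). They had been at 37.3% in d0 cells and were at 39.5% in EpiSCs. The later bins, at 74.4 and 36.7% on d2 and d3, had means of 64.6% (d4), 72.6% (d5), 72.99% (d6) and 75.6% (d7), beside 74.95% in d0 cells and 71.95% in EpiSCs. In 1149 of 1615 earlier bins (71.1%) and 610 of 844 later bins (72.3%) the d4 share was nearer to d2 than to d3. At d4, 268 earlier bins (16.6%) and 12.3% of the later bins still differed from d2 by 30 points in the same direction, beside 3.95 and 2.24% of all bins. At d0, 18.1% of the earlier and 4.03% of the later bins did, but the share of all bins was not counted for d0. The d2 cells helped to choose the bins, so the d4 and d0 shares are raised in part by the choice. The d0, d4, d5, d6, d7 and EpiSC cells did not choose the bins, but a group that does choose them stands out from groups that do not, by the choice alone.

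**Figure D5:**
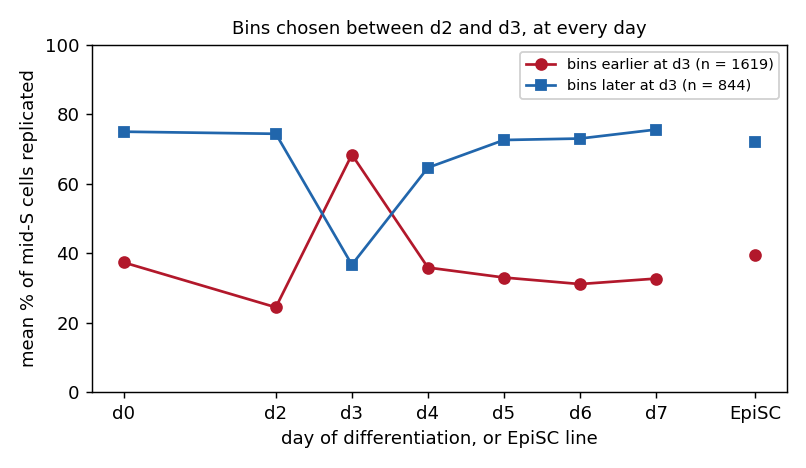
Mean percentage of mid-S cells replicated over the 1619 earlier bins (red circles) and the 844 later bins (blue squares) at each sampled day and in EpiSCs; the bins were chosen on d2 and d3. The red point lies above the blue one only at d3, where the means are 68.4 and 36.7%, and the d4 means are 35.9 and 64.6%.

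The same return was seen in cells outside the window. With scores of 20 to 40%, the earlier bins were replicated in 6.49% at d2, 29.4% at d3 and 6.21% in 8 d4 cells (mean score 27.7%), and the later bins in 32.6, 14.5 and 25.5%. Among whole regions the median share of the 83 gains was 22.3% at d2, 72.3% at d3 and 27.8% at d4, and that of the 39 losses was 71.4, 27.7 and 70.0%. The d4 share was nearer to d2 than to d3 in 58 of the 83 gains and 31 of the 39 losses. The 83 gains included 25 that held bins replicated in G1 cells, and the gains without such bins were not counted apart. The 10 largest gains without such bins were all nearer to d2 at d4, but some smaller ones stayed early. Chromosome 2 from 44240001 had mean shares of 40.0% at d2, 87.5% at d3 and 97.9% at d4. Chromosome 6 from 99040001 had 46.9, 90.8 and 93.3%.

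The bins that moved between d2 and d3 were set against those that separated the start from the end of the series. Between d0 and d7, whose cells did not choose these bins, 2300 bins were earlier at d7 (7.75% of those compared) and 2290 later (7.71%). Of the 1619 bins earlier at d3, 9.20% were among the 2300, which is 6.48% of that list, and 229 (14.1%) were among 2215 bins later at d7 and also compared here, which is 10.3% of that list. Of the 844 bins later at d3, 74 (8.77%) were later at d7, 3.34% of that list, and 63 (7.46%) were earlier, 2.74% of that list. Of all bins compared on these days, 7.78% were earlier and 7.50% later at d7. Bins earlier at d3 were thus later at d7 more often than earlier, and more often than all bins were (14.1 against 7.50%). All bins include the 32.6% with shares of at least 80% and the 25.6% with at most 20% at both d2 and d3. They are thus an unequal measure for bins chosen because they differed, and bins of like d2 share were not counted. The other overlaps lay nearer to the shares of all bins. Each cell's balance of the d0-to-d7 bins, those earlier at d7 minus those later, was alike on both days, with medians of -34.7 points at d2 (range -48.6 to -15.1) and -33.8 points at d3 (-55.1 to -20.9). The correlation across bins with the d7 profile was 0.825 for d2 and 0.744 for d3, and with the d0 profile 0.920 and 0.855, and with the 13 score-matched d2 cells in place of all 35 the values for d2 were 0.819 and 0.913. The d3 profile, a mean of 13 cells, was thus correlated less with both ends than the d2 profile was, at equal cell number too.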

How the data were processed

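Per the labels' protocols, single cells were sorted by DNA content, amplified with SeqPlex and sequenced as single reads; the submitters' processing notes name cutadapt, BWA 0.7.10-r789, Picard and mm9. Per the file headers, a merged G1 control was applied by the authors to every cell, and calls were deposited for 80 kb bins as scores (1 replicated, -1 not replicated, 0 no data). The deposited replication score is a fraction; recomputed from the calls, it moved by no more than 5e-08 points. Bins called per cell stand in for read depth.

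Groups came from titles, and 7 columns of the table that were not mapped to a sample were not used. Per bin, the replicated share was computed among mid-S cells holding a call, where at least 50% held one. Named regions were in each direction, the 10 runs of at least 5 changed bins whose mean difference was largest. Midpoints came from a logistic fit that took 1% of calls as wrong, over scores of 5 to 95%. Matching took the unused d2 cell closest in score. Steps were tested on simulated data with Python 3.11.15 (packages scipy 1.17.1, pandas 2.3.3, numpy 2.4.6, and matplotlib 3.10.9 for figures). The cells, bins and rules were chosen with earlier results of these data known. The gene table at hand is of GRCm38.p6, so no gene was placed on a bin.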

Additional observations from a re-analysis of the deposited data

Results flagged for a closer look

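Among the 6 d3 G1 cells, 1 cell had a replication score of 7.52%, while the other 5 lay between 0.319 and 1.04%. The same cell had 2.86% of the bins later at d3 called replicated, against 0 to 0.119% in the others. Its gap to the nearest cell exceeded Dixon's 95% limit for both values, a limit that chance passes in about 1 of 20 groups; 6 groups of values were examined. It was not among the 2 G1 cells merged into control C. It also had the most earlier bins called replicated, 15.99% against 2.19 to 8.13%.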

How the results depend on the processing

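The counts of changed bins and regions moved by more than 1.5 times under several settings. The 20 named regions kept their direction under all settings run for them. They were chosen for the largest differences, and only the midpoint setting used cells outside the window. The other settings reused the cells that chose the regions, so their direction was largely fixed by the choice. The reported values were 1619 earlier and 844 later bins, and regions covering 42.48 and 17.76 Mb. The window of 45 to 65% left 7 d3 cells and gave 2442 earlier bins and 77.52 Mb of earlier regions, and that of 35 to 75% gave 952 earlier and 1026 later bins, so that later bins outnumbered earlier ones. A size of 0.2 gave 3346 and 2220 bins and one of 0.4 gave 788 and 231. Score matching gave 1629 later bins and 36.8 Mb of later regions. A midpoint shift of 15 points over S phase gave 2539 and 2293 bins. Runs of 3 bins covered 78.48 and 35.52 Mb and runs of 10 covered 4.24 and 0 Mb. Against the d2 cells of control A alone, 2397 bins were later, with 76 Mb in regions; this setting and the leaving out of bins replicated in G1 were chosen after seeing the data. Leaving out each d3 cell in turn gave 1517 to 1965 earlier and 684 to 1147 later bins, with 37.36 to 55.12 and 12.16 to 23.44 Mb in regions. Without the 2 cells marked by the authors' filters, 1 of each day, the counts were 1562 and 1074. The mean shares at other days and outside the window moved by less than the spread between cells without bins replicated in G1. The cause of the shifts with control and with score matching was not tested. No paired analysis was possible because the numbers in the titles run within sorting gates and pair no d2 cell with a d3 cell. A comparison of cells that share a G1 control was not run, since the days share none. With 13 cells, a share of 6 of 13 has an interval of 19.2 to 74.9%, so single bins are poorly measured.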
